A study of Homo sapiens with 8 samples.

Results

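*EPCAM*, *CLDN7*, *SPINT1*, *SPINT2*, *ST14* and *PRSS8* encode an epithelial adhesion molecule, its claudin partner, and the membrane proteases and protease inhibitors that act on them. They were chosen by name, 1 probe set per gene, and these 6 genes are 6 of the 33616 genes that have a probe set with a single gene symbol. Each of the 6 has 1 such probe set, so the rule of taking the highest mean over the 8 arrays left nothing to choose. The names were picked with earlier results of this comparison known, so their counts describe these genes and support no statement about a pathway.

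RNA was taken from BCPAP cells, an established line from a papillary thyroid carcinoma, 72 h after lipid transfection of an siRNA pool. One group of 4 cultures received a non-targeting pool (si*NS*) and the other 4 a pool against *EPB41L4A* (si*EPB41L4A*), and each was hybridized to a Clariom D Human array. By the series' design text, the replicate experiments were run on separate occasions. Unless a block is named, the tests did not pair arrays by replicate number. Both groups are the same cell line with 1 pool each, so loss of *EPB41L4A* and any other action of its pool cannot be told apart. For the 4 control samples the treatment protocol in the labels mentions an siRNA against *LRRC34* or si*NS*, whereas their titles and source names give si*NS*, which was used here. The sample numbers of the groups form separate ranges. Any difference in handling between the groups was not tested and cannot be told apart from the action of the pool.

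The values are log2 values per probe set, made by the authors with the robust multiarray average. Their scale reaches 19.79 to 19.92 by array, and no source used here says how it relates to RNA amount, so a difference of 1 may not be a doubling of RNA. Array medians were 3.72 to 3.84, and the mean over the 612 negative control probe sets was 4.05 to 4.29 by array. *EPB41L4A* itself fell from 9.53 ± 0.26 to 6.33 ± 0.70 (SD, n = 4 each). Of the thyroid markers, *PAX8* (13.10 and 13.50), *NKX2-1* (9.23 and 8.88) and *FOXE1* (7.05 and 7.58) lay above the negative control mean on all arrays (means with si*NS* and si*EPB41L4A*), whereas *TG*, *TSHR* and *SLC5A5* lay below it on all 8. Of the 3 white blood cell and 3 endothelial markers measured, 0 lay above that mean on all 8 arrays. Of the 3 fibroblast markers measured, 2 did, *COL1A1* (9.22 and 8.64) and *COL1A2* (6.44 and 6.36). Of the 4 epithelial markers, 3 did, *KRT8*, *KRT18* and *KRT19*.

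In epithelia, *EPCAM* is a membrane glycoprotein of the lateral cell surface that binds the tight junction protein encoded by *CLDN7* and helps to keep it from being degraded. Matriptase, the product of *ST14*, is a membrane-anchored serine protease that can cleave *EPCAM*, and prostasin, the product of *PRSS8*, acts in the same protease cascade. *SPINT1* and *SPINT2* encode membrane-bound Kunitz inhibitors of both proteases. Inherited loss of *EPCAM* or *SPINT2* causes severe congenital diarrhoea, which shows the need for these genes in the gut lining.

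*EPCAM* and both Kunitz inhibitors fell after transfection of the *EPB41L4A* pool, whereas the 2 proteases were not above background in either group. Of the 6 genes, 4 were tested, and limma called 3 of these lower and 0 higher (adjusted p under 0.05). Among the 66831 tested probe sets, 2.61% were called, 923 lower (1.38%) and 824 higher (1.23%). With 1 probe set for each of 22465 genes, 2.96% were called lower and 2.55% higher. After quantile normalization again, 42.2% of the called probe sets were lower in place of 52.8%. All 4 tested genes lay above the array median on each of the 8 arrays, so none passed the filter through 1 group only. A probe set measures RNA from the whole culture, so fewer cells with a transcript and less of it per cell cannot be told apart.

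**Figure D1:**
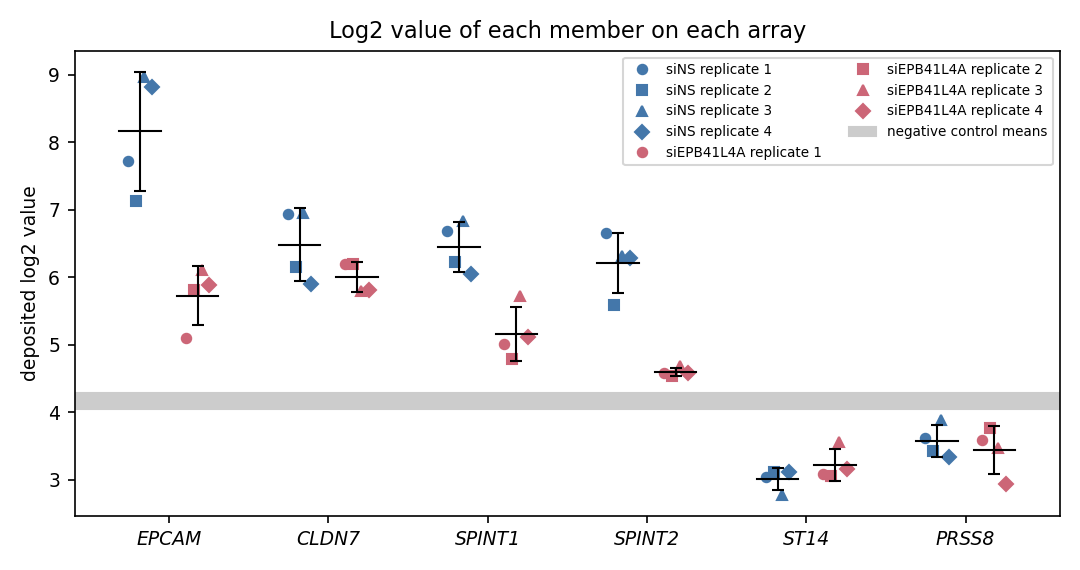
Deposited log2 value (vertical axis) of each of the 6 genes on each array, with si*NS* in blue and si*EPB41L4A* in red, a marker shape for each replicate number, and the mean and SD of 4 arrays in black. The grey band is the range of the negative control means, 4.05 to 4.29; *EPCAM*, *SPINT1* and *SPINT2* separate by group above it, and *ST14* and *PRSS8* lie below it.

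*EPCAM*, the adhesion molecule, had log2 values of 7.72, 7.13, 8.97 and 8.81 on the si*NS* arrays and 5.10, 5.81, 6.11 and 5.88 on the si*EPB41L4A* arrays. The highest knockdown array lay below the lowest control array, so the groups did not overlap. Replicates 3 and 4 were the high controls and replicate 1 was the low knockdown array. The group means were 8.16 ± 0.88 and 5.72 ± 0.44 (SD, n = 4 each), a log2 change of -2.43 (95% confidence interval -3.28 to -1.58, adjusted p = 0.00683 from limma). An exact two-sided permutation test gave p = 0.0286, the smallest that 4 arrays against 4 allow. Of the 22465 genes tested, 73 had a larger fall, or 0.325%. *EPCAM* exceeded 98.7 to 99.8% of the negative control probe sets on the si*NS* arrays and 81.0 to 95.4% on the si*EPB41L4A* arrays, so part of its remaining signal lies in the range of those controls.

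*SPINT2*, the smaller of the inhibitor pair, had si*NS* values of 6.65, 5.58, 6.32 and 6.29 and si*EPB41L4A* values of 4.58, 4.54, 4.68 and 4.58. The knockdown arrays lay close together and all below the lowest control array, replicate 2. The means were 6.21 ± 0.45 and 4.59 ± 0.06 (SD, n = 4 each), and the log2 change was -1.62 (95% confidence interval -2.14 to -1.09, adjusted p = 0.00455 from limma). The exact permutation p was again 0.0286. With si*EPB41L4A* the gene exceeded only 64.5 to 71.1% of the negative controls, against 88.2 to 97.7% with si*NS*. It still lay above the negative control mean on all 4 of those arrays.

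*SPINT1*, whose product is the best-studied inhibitor of matriptase, had si*NS* values of 6.68, 6.23, 6.83 and 6.05 and si*EPB41L4A* values of 5.01, 4.79, 5.72 and 5.12. The groups did not overlap, and replicate 3 was the highest array in both. The means were 6.45 ± 0.36 and 5.16 ± 0.39 (SD, n = 4 each), a log2 change of -1.29 (95% confidence interval -1.86 to -0.71, adjusted p = 0.0238 from limma; exact permutation p = 0.0286). *SPINT1* no longer passed when control replicate 1 or 3 was left out (adjusted p = 0.0721 and 0.0714), or knockdown replicate 1, 2 or 4 (adjusted p = 0.0553, 0.0853 and 0.0541). The gene exceeded 92.6 to 97.9% of the negative controls on the si*NS* arrays and 77.5 to 91.8% on the si*EPB41L4A* arrays. Of the 22465 genes, 7.85% likewise had all knockdown arrays below all control arrays, and 14.4% had groups that did not overlap in either direction.

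*CLDN7*, the claudin that binds *EPCAM*, had si*NS* values of 6.93, 6.15, 6.95 and 5.90 and si*EPB41L4A* values of 6.19, 6.20, 5.80 and 5.81. The groups overlapped, since control replicates 2 and 4 lay among the knockdown arrays. The means were 6.48 ± 0.54 and 6.00 ± 0.22 (SD, n = 4 each), a log2 change of -0.48 (95% confidence interval -1.08 to 0.12) that did not pass the test (adjusted p = 0.494 from limma; exact permutation p = 0.171). The interval reaches from a fall of 1.08 to a rise of 0.12, which does not show that *CLDN7* stayed level. *CLDN7* exceeded 91.8 to 98.5% of the negative controls on the si*NS* arrays and 92.2 to 96.1% on the si*EPB41L4A* arrays.

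Whether the 4 tested genes differed from each other in their change was tested on the difference of their log2 values within each array, over all 6 pairs. *EPCAM* had the lower change of the pair with *CLDN7* (difference of log2 changes -1.95, exact permutation p = 0.0286, adjusted over the 6 pairs 0.0857). The change of *CLDN7* relative to *SPINT2* was 1.14 (exact permutation p = 0.0286, adjusted 0.0857). Neither pair overlapped between groups, and neither passed after adjustment. With 0.0286 as the smallest exact p, at least 4 of the 6 pairs would have had to reach it for any to pass. The 2 inhibitors differed by 0.33 (*SPINT1* minus *SPINT2*, exact permutation p = 0.257, adjusted 0.257).

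**Figure D2:**
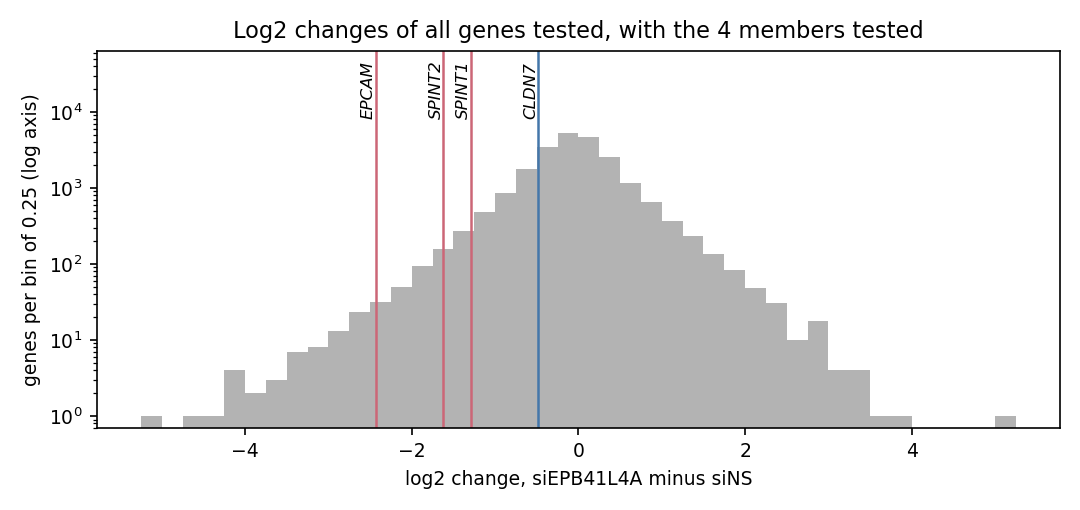
Histogram of the log2 changes of the 22465 genes tested (horizontal axis, si*EPB41L4A* minus si*NS*; vertical axis, genes per bin of 0.25 on a log scale), with vertical lines at the 4 tested genes, red where called lower. *EPCAM* at -2.43, *SPINT2* at -1.62 and *SPINT1* at -1.29 lie in the left tail and *CLDN7* at -0.48 nearer the middle.

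The proteases themselves were not detected above the negative controls. *ST14* had log2 values of 3.04, 3.12, 2.78 and 3.11 with si*NS* and 3.09, 3.05, 3.56 and 3.16 with si*EPB41L4A*. It lay below the negative control mean and below the array median on every array, and exceeded 10.5 to 31.9% of the negative controls. *PRSS8* had values of 3.62, 3.43, 3.88 and 3.34 with si*NS* and 3.59, 3.76, 3.47 and 2.93 with si*EPB41L4A*, above the array median on 1 array and above the negative control mean on none. It exceeded 8.82 to 50% of the negative controls. The groups overlapped for both genes. Neither met the filter, so neither was tested with limma, and no fold is given between 2 groups at background. Exact permutation tests gave p = 0.257 for *ST14* and p = 0.629 for *PRSS8*, but values at background cannot show whether either gene changed. A probe set that does not rise above the controls gives only a bound, so low expression of either protease remains possible.

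**Figure D3:**
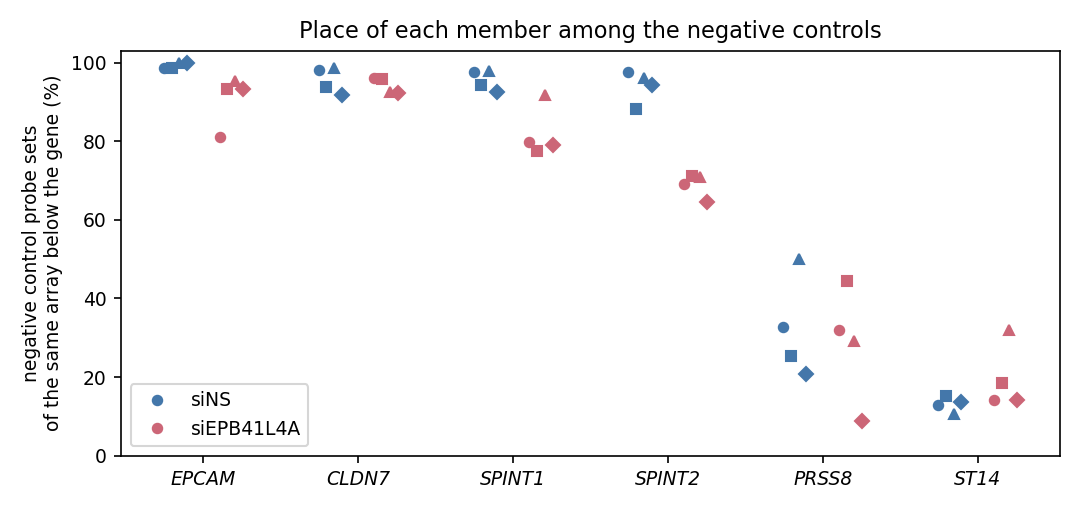
Percentage of the 612 negative control probe sets of the same array that lie below each gene (vertical axis), for the 4 si*NS* (blue) and 4 si*EPB41L4A* (red) arrays, with a marker shape for each replicate number. *PRSS8* reaches at most 50% and *ST14* at most 31.9%, while *CLDN7* is at 91.8% or more on every array.

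RefSeq promoter windows (GRCh38.p14) were matched for 2 of the 6 genes, *SPINT1* and *CLDN7*, at 2 start sites each. The 250 bases before each start were searched for CACCTG on both strands (CAGGTG on the strand shown), the E-box letters that the epithelial repressors of the SNAI and ZEB families are known to bind, and for AACCGGTT, the letters bound by the epithelial activators of the GRHL family. At the first start of each gene (chr15:40843798-40844047 for *SPINT1* and chr17:7263214-7263463 for *CLDN7*) neither motif was present. The windows at the second starts are shown because they hold the E-box, set in capitals, 1 time in *SPINT1*, which fell, and 4 times in *CLDN7*, which was not called.
*SPINT1*, chr15:40844227-40844476, plus strand: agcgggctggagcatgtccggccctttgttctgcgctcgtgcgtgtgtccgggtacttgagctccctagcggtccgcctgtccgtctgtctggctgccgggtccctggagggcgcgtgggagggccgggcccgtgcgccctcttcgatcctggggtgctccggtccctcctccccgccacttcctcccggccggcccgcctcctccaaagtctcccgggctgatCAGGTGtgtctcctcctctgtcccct
*CLDN7*, chr17:7262479-7262728, minus strand: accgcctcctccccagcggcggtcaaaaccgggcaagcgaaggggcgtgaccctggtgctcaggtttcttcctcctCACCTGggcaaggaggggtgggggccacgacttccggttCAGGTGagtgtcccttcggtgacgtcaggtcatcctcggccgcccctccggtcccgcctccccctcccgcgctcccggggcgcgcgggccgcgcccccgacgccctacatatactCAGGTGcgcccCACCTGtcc
The E-box starts 26 bases before the second start of *SPINT1*, and 174, 135, 20 and 9 bases before that of *CLDN7*. Of 35116 promoter windows of this length, 17.5% held CACCTG on either strand at least once and 0.122% at least 4 times, and 0.117% held AACCGGTT. A match describes the letters of the reference and is not a binding site measured in these cells.

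The genes around *EPCAM* moved in both directions. A list of 19 partners and processing enzymes, which includes *CLDN7*, had 17 measured and 16 tested members. Of these, 3 rose, 2 fell and 11 did not pass (5.51% of all genes tested with 1 probe set each were called in either direction), and the median log2 change was 0.00, beside -0.05 over all tested probe sets. Among other claudins, *CLDN4* fell from 14.52 ± 0.30 to 13.09 ± 0.21 (limma log2 change -1.44, adjusted p = 0.00592). *CLDN1* rose from 17.30 ± 0.29 to 18.36 ± 0.17 (SD, n = 4 each), near the top of the scale (limma log2 change 1.07, adjusted p = 0.0234). The call of *CLDN1* was kept only without si*NS* replicate 2 or si*EPB41L4A* replicate 1 among the 8 fits that left out 1 array, with adjusted p from 0.0289 to 0.0825.

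Of the proteases that cut *EPCAM* after or beside matriptase, *BACE1*, a beta-secretase, rose from 5.06 ± 0.30 to 6.41 ± 0.25 (SD, n = 4 each; limma log2 change 1.35, adjusted p = 0.00921). Its si*NS* mean lay within the range of the negative controls, whose 95th percentile was 6.04 to 6.43 on the si*NS* arrays. *PSENEN*, a subunit of the gamma-secretase that releases the intracellular part of *EPCAM*, fell by 1.46 (adjusted p = 0.0187), which no longer passed with control replicate 1 or knockdown replicate 2 left out (adjusted p = 0.0608 for each). Its partner subunits *NCSTN*, *APH1A*, *PSEN2* and *APH1B* had log2 changes of -0.83, -0.76, -0.65 and 0.10, none of which passed (adjusted p = 0.190, 0.197, 0.246 and 0.911). The metalloproteases *ADAM10* and *ADAM17* had log2 changes of 0.71 and -0.88 and did not pass either (adjusted p = 0.136 and 0.129). *FHL2*, a LIM-domain protein that binds the released part of *EPCAM*, rose from 10.23 ± 0.55 to 11.72 ± 0.14 (SD, n = 4 each; limma log2 change 1.49, adjusted p = 0.0132).

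Membrane-anchored serine proteases other than *ST14* and *PRSS8* gave no call either. All 24 genes of that list were measured and 11 were tested, of which 0 rose and 0 fell by limma (unadjusted p under 0.05 for 1 higher and 0 lower), and an unmoderated fit called 0 after adjustment. Over all genes tested with 1 probe set each, limma called 5.51%, so 0 calls among 11 do not set this list apart. Of the 24, 13 lay above the negative control mean on no array and 4 on all 8. *TMPRSS11F*, a protease of the airway trypsin-like group, was one of these: its si*NS* mean was 6.81 ± 0.23 and its si*EPB41L4A* mean 7.70 ± 0.54 (SD, n = 4 each), with overlap between the groups and a log2 change of 0.89 (95% confidence interval 0.29 to 1.49, adjusted p = 0.128 from limma). *TMPRSS2*, *CORIN* and *TMPRSS15* were the others, with log2 changes of -0.10, -0.20 and 0.15 (adjusted p = 0.938, 0.820 and 0.905). *HPN*, which encodes hepsin, exceeded 39.9 to 73.5% of the negative controls.

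The other inhibitors included genes that rose. Of 19 Kunitz and serpin genes, those 2 included, 18 were measured and 12 tested, and 2 rose, 2 fell and 8 did not pass, with a median log2 change of 0.08. The 2 that fell were *SPINT1* and *SPINT2*. The share called was 33.3%, beside 5.51% of all genes tested with 1 probe set each. The list was chosen with earlier results known, so this share is a description only. The Kunitz genes *TFPI*, *TFPI2* and *APLP2* had log2 changes of 0.78, -0.58 and 0.53 (adjusted p = 0.446, 0.558 and 0.286 from limma), and *SPINT3* and *SPINT4* were not tested. *SERPINE2*, protease nexin, which inhibits prostasin, rose from 13.22 ± 0.73 to 14.97 ± 0.76 (SD, n = 4 each; limma log2 change 1.75, adjusted p = 0.0463). Its call was kept only without si*NS* replicate 3 or si*EPB41L4A* replicate 4 among the fits that left out 1 array, with adjusted p from 0.0271 to 0.119, and was lost with no filter (adjusted p = 0.0748). *SERPINC1*, antithrombin, rose by 0.94 from 4.35, a level near the negative controls (adjusted p = 0.0420), a call kept in 1 of those 8 fits, that without si*EPB41L4A* replicate 2 (adjusted p from 0.0495 to 0.123).

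Of 17 substrates and receptors of the 2 proteases, *EPCAM* included, 15 were measured and 10 tested: 3 rose, 1 fell (*EPCAM*) and 6 did not pass, with a median log2 change of -0.02. The share called was 40%, beside 5.51% of all genes tested with 1 probe set each. This list too was chosen with earlier results known, so its share is a description only. *PDGFC*, a growth factor activated by proteolysis, rose from 8.53 ± 0.05 to 9.77 ± 0.28 (SD, n = 4 each; limma log2 change 1.24, adjusted p = 0.00884). *EGFR* rose by 1.63 (adjusted p = 0.0221), and no longer passed with control replicate 2 left out (adjusted p = 0.0527), or knockdown replicate 1, 2 or 3 (adjusted p = 0.0550, 0.0801 and 0.0582). *CDCP1*, a surface glycoprotein that matriptase can cleave, rose by 0.84 (adjusted p = 0.0455), a call lost without any 1 of the 8 arrays (adjusted p from 0.0677 to 0.127). *MET*, the receptor of the growth factor that matriptase activates, had a log2 change of 0.54 and *PLAUR*, the urokinase receptor, of -1.12, and neither passed (adjusted p = 0.258 and 0.113).

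Most other epithelial genes were low or were not called. Of 30 epithelial regulators and epithelial genes, 28 were measured and 19 tested, of which *KRT7*, a simple-epithelium keratin, fell and 0 rose (unadjusted p under 0.05 for 1 higher and 3 lower). Without a replicate block the share called was 5.26%, near the 5.51% over all genes tested with 1 probe set each, so that count does not set this list apart. With the replicate number as a block *KRT8* and *ELF3* were also called lower (adjusted p = 0.0278 and 0.00467 from limma). *EHF* was then called higher (adjusted p = 0.0112). That fit called 3176 of the 66831 tested probe sets. The median log2 change was -0.09, and 8 of the 28 lay above the negative control mean on no array. *KRT7* went from 15.41 ± 0.21 to 13.99 ± 0.31 (SD, n = 4 each; limma log2 change -1.42, adjusted p = 0.00645), with a change of -0.96 as the mean of its probe sets (adjusted p = 0.169). *CDH1*, E-cadherin, was at 3.48 ± 0.26 and 3.57 ± 0.13 (SD, n = 4 each), below the negative control mean in both groups, so these cells carried *EPCAM* signal with no E-cadherin signal above the controls. *GRHL2*, an activator of epithelial genes, was at 4.29 ± 0.28 and 4.34 ± 0.32, near the controls, with a log2 change of 0.05 (adjusted p = 0.965) whose sign turned without si*NS* replicate 2 or si*EPB41L4A* replicate 1.

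Of 10 repressors of epithelial genes, 8 were tested, and without a replicate block 1 fell and 0 rose (3 higher at an unadjusted p under 0.05). That 1 call is 12.5% of the list's tested genes, beside 5.51% of all genes tested with 1 probe set each. *SNAI1* fell from 6.28 ± 1.08 (SD, n = 4) to the level of the negative controls, by at least 2.11 on the log2 scale (adjusted p = 0.0164 from limma). *SNAI1* no longer passed with control replicate 3 or knockdown replicate 2 left out (adjusted p = 0.0511 and 0.0519). *ZEB1*, *ZEB2* and *SNAI2* had log2 changes of 0.97, 1.28 and 1.84 and did not pass (adjusted p = 0.0689, 0.109 and 0.171).

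**Figure D4:**
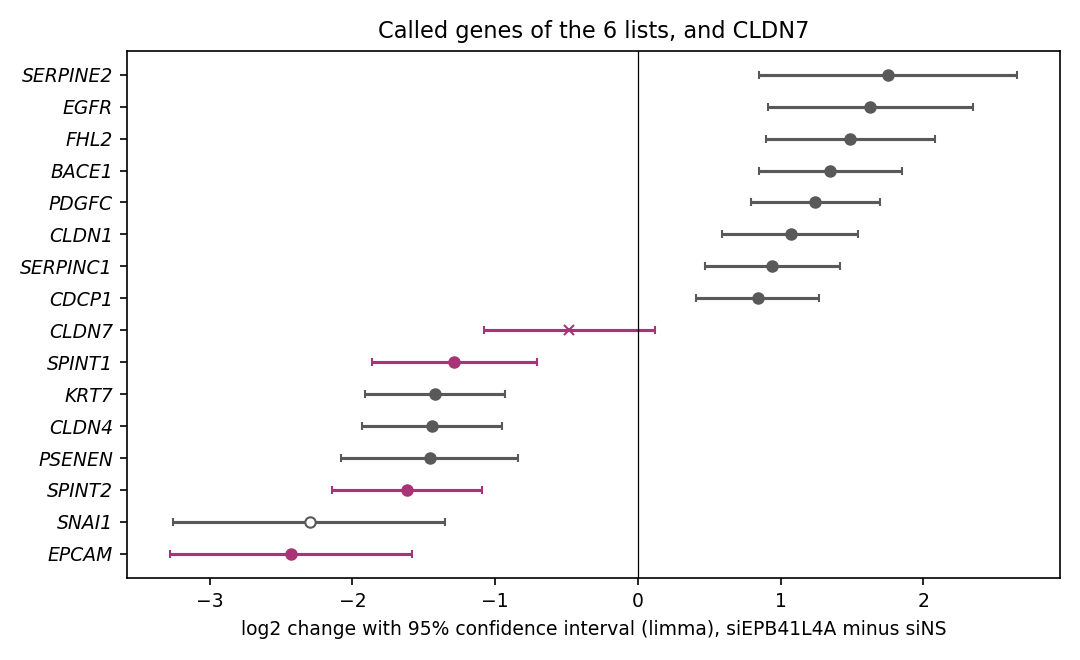
Log2 change (horizontal axis, si*EPB41L4A* minus si*NS*) with the 95% confidence interval from limma for the 15 called genes of the 6 lists and for *CLDN7*, which was not called and is drawn as a cross; *EPCAM*, *CLDN7*, *SPINT1* and *SPINT2* are in purple. The open marker is the fitted change of *SNAI1*, which with si*EPB41L4A* lay at the level of the negative controls. *EPCAM*, *SPINT1* and *SPINT2* stand at -2.43, -1.29 and -1.62 among genes that changed both ways.

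The genes most like each tested gene over the 8 arrays were found by the root mean square difference of log2 values, each gene centred on its own mean. *EPCAM* was closest to *MIDN* (0.40), *REEP5* (0.44) and *SNAI1* (0.45), with fitted log2 changes of -2.50, -2.10 and -2.30. *SPINT1* was closest to *B4GALT5* (0.17), *PRKD2* (0.20) and *SNORA38* (0.20), and *SPINT2* to *ST6GALNAC6* (0.20), *TBCEL* (0.21) and *RTF2* (0.24). *CLDN7* was closest to *RNU6-681P*, *RPS20P4* and *TSPAN33* (0.12 each). Among the tested genes themselves, *SPINT1* and *SPINT2* were the closest pair (0.37) and *EPCAM* and *CLDN7* the farthest (1.21). This measure is a description of 8 arrays in 2 groups and has no test.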

How the data were processed

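The authors processed the arrays in Affymetrix Expression Console with RMA, the robust multiarray average, and deposited the log2 values, which were used as they stand. For the software version and genome build, the sources used here say nothing. A gene name was taken only from probe sets with 1 symbol in the platform annotation (36176; another 1119 carry several). Where a gene had several such probe sets, that with the highest mean was used.

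Besides 2995 control rows, the table holds 135750 probe sets. limma 3.58.1 in R 4.3.3 compared si*EPB41L4A* with si*NS* without a block over the 66831 that exceeded the array median on 4 or more arrays, and p-values were adjusted over all of these by Benjamini-Hochberg (threshold 0.05). For a called gene at the level of the negative controls, the change is a bound, computed with values raised to each array's control mean. Exact permutation tests were two-sided. Read depth does not apply to arrays, and the number of arrays limits the precision. The limma step was checked on simulated arrays.

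The members, the 6 gene lists and the motifs were chosen with earlier results of these data known. The text names the members, *EPB41L4A*, the called genes of each list, *GRHL2*, *CDH1* and *MET*, and the 3 genes most like each tested member; some other genes of the lists are not reported here. The test between pairs of members, the search for motifs and the naming of further list genes were added after the values were seen. Alternatives were other filters, a replicate block, quantile normalization again, median centring, a trended prior, Student's t-test, weighted arrays, averaging over probe sets of 1 gene, other thresholds, and leaving out each array.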

Additional observations from a re-analysis of the deposited data

How the results depend on the processing

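*EPCAM*, *SPINT1* and *SPINT2* kept a negative log2 change in every fit run, and *CLDN7* passed the threshold in none. By Student's t-test without moderation, 0 of the 4 tested members were called after adjustment (3 lower at an unadjusted p under 0.05), with log2 changes of -2.43 for *EPCAM* (adjusted p = 0.127), -1.29 for *SPINT1* (adjusted p = 0.135) and -1.62 for *SPINT2* (adjusted p = 0.0585). That test called 312 probe sets in all, 158 higher and 154 lower. In the 9 other filters, scalings and models these 3 genes kept their calls at 0.05. Leaving out each array gave 2 to 3 members called lower and 0 higher, with log2 changes of -2.78 to -2.16 for *EPCAM*, -1.47 to -1.16 for *SPINT1*, -1.82 to -1.47 for *SPINT2*, -0.67 to -0.32 for *CLDN7* and -0.07 to 0.19 for *GRHL2*. Over all probe sets it gave 797 to 1628 calls, 381 to 909 lower and 416 to 719 higher, with 1026, 996 and 1115 calls without si*NS* replicate 1, 2 and 3, and 797 and 997 without si*EPB41L4A* replicate 2 and 3. At an adjusted p under 0.01, 2 members remained called (not *SPINT1*) and 544 probe sets were called (251 lower, 293 higher), and under 0.1, 2918 (1604 lower, 1314 higher).

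With the replicate number as a block, 3176 of the 66831 tested probe sets were called (1740 lower, 1436 higher). *EPCAM*, *SPINT1* and *SPINT2* had adjusted p = 0.00224, 0.00959 and 0.00445 from limma. Arrays with the same number deviated from their group means with correlations of 0.228, 0.0746, 0.201 and 0.385. Every array correlated best with its own number. By the series' design text the replicate experiments were run on separate occasions, but no source ties the numbers to those occasions. One value is under 0.1, which does not show that the numbers carry no pairing. The main tests treated the numbers as names only. If the numbers do mark occasions, the main limma and permutation tests ignored that pairing. Among the members and list genes the block lost no call, and it added calls of genes that did not pass without it. These added calls were not set against a share of all genes called with the block, so they describe the named genes only. *ADAM17*, *NCSTN*, *SERPINA1*, *PLAUR*, *ELF3* and *KRT8* were then called lower (adjusted p = 0.0408, 0.0458, 0.0226, 0.0116, 0.00467 and 0.0278). *EHF*, *ZEB1*, *ZEB2* and *SNAI2* were then called higher (adjusted p = 0.0112, 0.0326, 0.0141 and 0.00515). No probe set of second rank could be used for a member, since each has only 1. *ST14* and *PRSS8* lie below the negative control mean on every array, so a change in either could not be read.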

Other observations

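Among the membrane-anchored proteases, *TMPRSS15*, which encodes the duodenal enzyme enteropeptidase, exceeded all 612 negative control probe sets on every array, where its si*NS* mean was 12.17 ± 0.59 and its si*EPB41L4A* mean 12.32 ± 0.53 on the log2 scale (SD, n = 4 each). Replicate 3 was the highest array in both groups. Whether this probe set also reads other RNA was not tested, so its signal does not show that these cells express enteropeptidase. The 2 epithelial ETS factors *ELF3* and *EHF* had log2 changes of -1.54 and 1.59, and neither passed without a block (adjusted p = 0.0984 and 0.275 from limma). With the replicate number as a block both were called (adjusted p = 0.00467 and 0.0112 from limma).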
